A study of Bos taurus with 36 samples.

Results

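The genes described here are 9 transcription factors by which the hepatocyte, the main cell of the liver, is usually recognised: HNF4A (Entrez 509200), FOXA1 (503579), FOXA2 (101906272), FOXA3 (503622), CEBPA (281677), PROX1 (515324), NR1H4 (540528), ONECUT1 (503584) and NR5A2 (541305). They were chosen by symbol, and each matched 1 of the 35092 genes in the count table. The organs came from 10 male fetuses of cattle, collected on Day 42 of gestation, and blood was drawn from the heifers carrying them, which gave 8 liver, 9 heart, 9 gonad and 10 maternal blood libraries. The gonads are labelled as fetal testicle. Every heifer received an embryo of Day 7: in the group ET_D7 (fetuses 1 to 5) the uterus was also at Day 7 of its cycle, and in the group ET_D9 (fetuses 6 to 10) it was at Day 9. The fetuses are numbered by weight, from 1.253 g (fetus 1) to 1.69 g (fetus 10), so every ET_D9 fetus was heavier than every ET_D7 fetus and the effects of weight and of transfer group cannot be told apart. Livers of fetuses 6 and 7, the heart of fetus 7 and the gonads of fetus 2 were not among the libraries.

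In the embryo the liver grows out of the foregut endoderm. FOXA proteins open the chromatin of liver genes in that endoderm, PROX1 is needed for hepatoblasts to spread into the surrounding tissue, and ONECUT1 (HNF6) and HNF4A take part in the maturation of the hepatocyte. These factors bind at each other's genes and at those of plasma proteins and metabolic enzymes. CEBPA drives genes of glucose and nitrogen metabolism and is also a factor of granulocytes, while NR1H4 (FXR, the bile acid receptor) and NR5A2 (LRH-1) are nuclear receptors that govern bile acid and cholesterol metabolism. None of the 9 is confined to the liver in the animal as a whole: PROX1, for example, is also found in heart muscle and in lymphatic endothelium.

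Levels are given as CPM, a gene's counts scaled to the size of its library after TMM scaling, which corrects for a few genes taking a large share of a library. Organs were scaled together and blood on its own, because blood libraries were made with another kit, so organ and blood levels are set side by side without a test. Total counts ranged from 18231089 to 34454772 in the livers, from 20930367 to 35857434 in the hearts, from 22762065 to 39649051 in the gonads and from 26602415 to 40812354 in blood. Some libraries were not independent of others. The gonad libraries of fetuses 6 and 8 were proportional copies, with 91.6% of 12930 genes of at least 100 counts within 1% of 1 common ratio. The liver libraries of fetuses 1 and 2 differed by less than counting noise (chi-square ratio 0.256, where 1 is counting noise). The liver of fetus 9 was close to a weighted sum of those of fetuses 10 and 8, with 90.7% of 11087 genes within 5% of it, and the heart of fetus 1 to one of hearts 5, 2, 4 and 3 (69.9% of 10694 genes). Means and SD therefore count livers 1 and 2, and gonads 6 and 8, as 1 sample each and leave out liver 9 and heart 1, giving n = 6 livers, 8 hearts, 8 gonads and 10 blood samples. Tests used every library and were repeated without liver 1, liver 9, heart 1 and gonads 8 (gonads 6 and 8 both in the tests within the gonads).

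The tissue labels were compared with fixed marker lists. The summed level of 8 hepatocyte markers was 32210 to 58670 CPM in the livers, 58.0 to 92.8 CPM in the hearts and 308 to 564 CPM in the gonads. Of the 8, DLK1 differed least between liver and gonads, with a log2 fold change of 1.41. Each of the others was higher in the liver than in the gonads by at least 8.75, so the gonad sum does not stand for all 8 alike. The livers also held 8 erythroid markers at a summed 4084 to 6192 CPM. Of gut and pancreas endoderm, which shares several of the 9 factors, SOX2 and PTF1A had 0 counts in all livers and the 7 markers summed to 3.63 CPM in the liver of fetus 8 and to at most 0.801 CPM in the others. The liver of fetus 8 was also the highest for FOXA1, FOXA2 and ONECUT1, and the part of such cells in these levels was not tested. In the libraries labelled as gonads, 7 Sertoli and steroidogenic markers summed to only 9.61 to 21.9 CPM, below the 26.7 to 37.9 CPM of the hearts. There 8 mesonephros and nephron markers summed to 321 to 417 CPM, led by WT1 and PAX2. The same 8 summed to 160 to 317 CPM in the livers, so the sum alone does not set the gonads far apart. Of the 8, only CDH16 and LRP2 were higher in the liver than in the gonads (log2 fold change 5.28 and 2.43). WT1 and PAX2 were lower (-5.92 and -8.84). In bulk RNA, fewer cells of a type and less RNA per cell cannot be told apart.

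Of the 9 factors, 8 had higher levels in the liver than in either the heart or the gonads, and their lowest liver library lay above the highest heart and gonad library. PROX1 was the exception: the heart held the most, the liver less and the gonads the least. By edgeR's quasi-likelihood test with Benjamini-Hochberg adjustment, 8 were higher and 1 was lower in the liver than in the heart, against 30.7% and 27.9% of 25095 genes, and 9 were higher in the liver than in the gonads, against 33.6%. Liver levels above all gonad libraries were found for 14.7% of genes, and above all heart and gonad libraries for 9.72%. The median of the smaller log2 fold change, over heart or gonads, was 5.73 for the 9 factors, where the median log2 fold change over all genes was 0 in both comparisons. All of these calls and directions held in the fits without dependent libraries, with the fetus as a replicate block, and under the other alternatives tried.

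**Figure D1:**
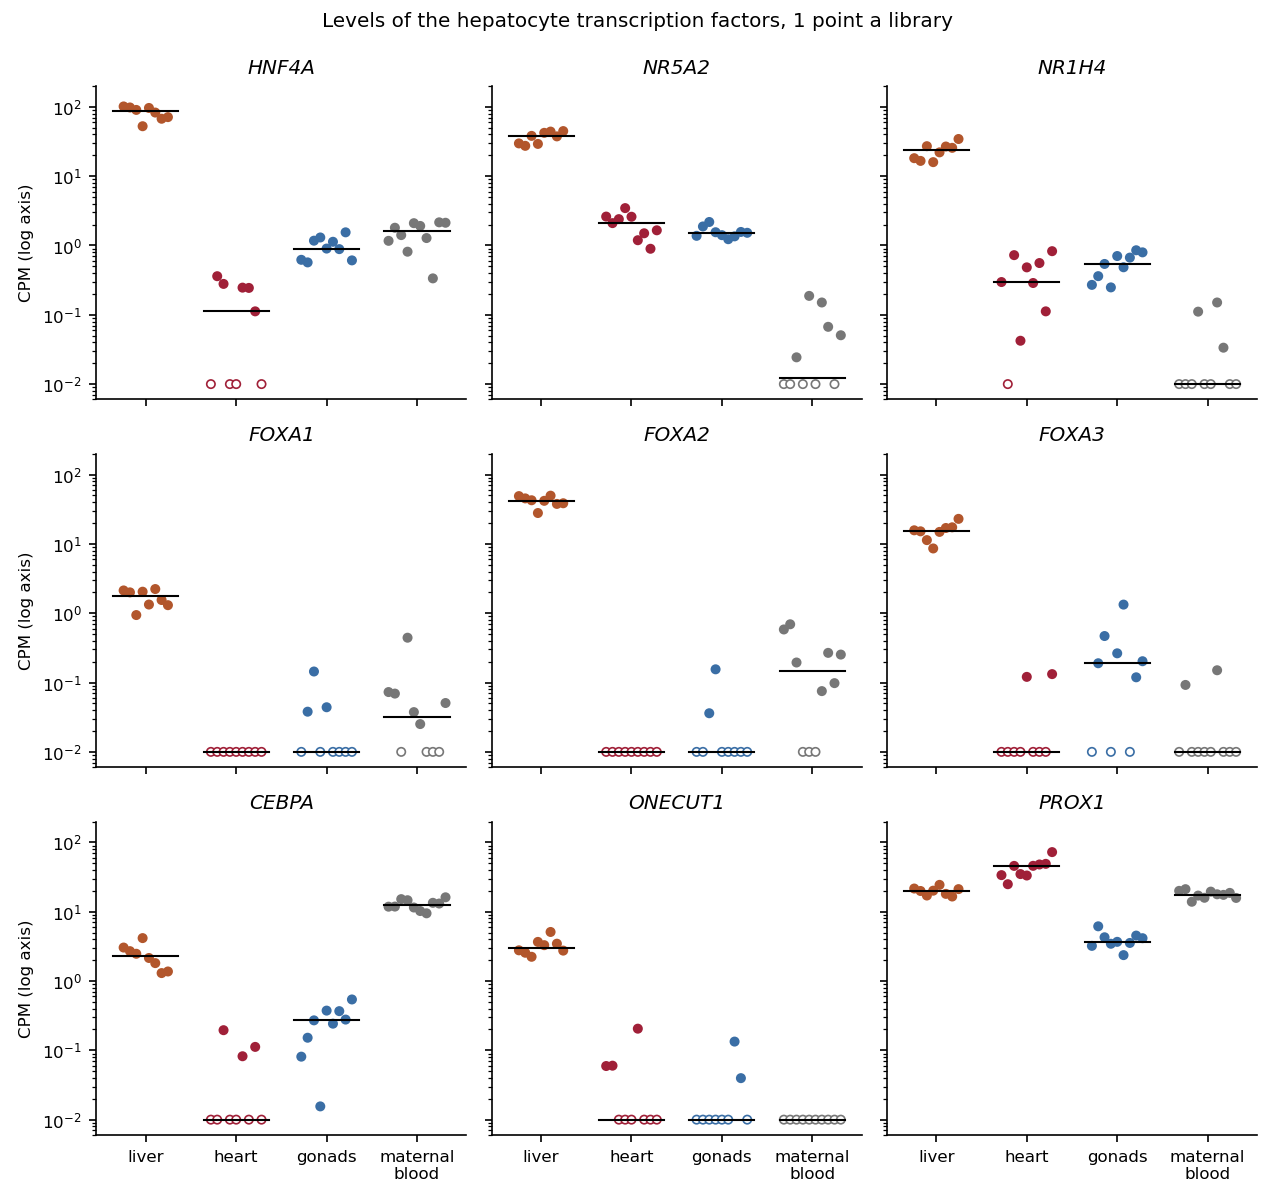
CPM of the 9 factors (log axis) in each liver, heart, gonad and maternal blood library, 1 point a library, with the group median as a bar. Hollow points at 0.01 CPM are libraries with no count. All factors but PROX1 have every liver point above every heart and gonad point, and blood was scaled apart from the organs.

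Among the nuclear receptors, HNF4A, which activates many genes of lipoproteins and clotting, had 745 to 2960 counts in a liver library. Its levels in the livers of fetuses 1, 2, 3, 4, 5, 8, 9 and 10 were 101, 98.0, 90.4, 52.6, 96.4, 82.8, 67.4 and 71.1 CPM. Fetus 4 had the lowest level and the lightest fetus the highest, with a mean of 82.2 ± 17.8 CPM (SD, n = 6). In the hearts it reached at most 0.360 CPM and was at 0 in 4 of 9 libraries, and in the gonads it ranged from 0.570 to 1.55 CPM. The groups did not overlap, and the log2 fold change of the liver was 9.12 over the heart (SE 0.426, adjusted p = 8.1e-17, edgeR) and 6.40 over the gonads (SE 0.352, adjusted p = 2.92e-15, edgeR).

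NR5A2, which drives bile acid synthesis genes, stood at 29.7, 27.4, 38.2, 29.2, 42.2, 44.0, 37.5 and 44.7 CPM in the livers of fetuses 1, 2, 3, 4, 5, 8, 9 and 10. The livers of fetuses 8 and 10 held the most and that of fetus 2 the least, and the mean was 37.8 ± 7.28 CPM (SD, n = 6). It was not absent elsewhere, with 0.897 to 3.46 CPM in the hearts and 1.23 to 2.18 CPM in the gonads, 2 ranges that overlapped. The log2 fold change of the liver was 4.16 over the heart (SE 0.223, adjusted p = 1.72e-15, edgeR) and 4.54 over the gonads (SE 0.225, adjusted p = 2.82e-16, edgeR).

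NR1H4, the bile acid receptor, measured 18.2, 16.6, 27.1, 15.9, 22.1, 26.8, 25.6 and 34.4 CPM in the livers of fetuses 1, 2, 3, 4, 5, 8, 9 and 10. The heaviest fetus had the highest level and fetus 4 the lowest. Heart libraries held up to 0.828 CPM and gonad libraries 0.249 to 0.853 CPM, so the level in the liver (23.9 ± 6.89 CPM, SD, n = 6) was higher by a log2 fold change of 5.91 (SE 0.472, adjusted p = 1.05e-11, edgeR) and 5.40 (SE 0.454, adjusted p = 2.67e-11, edgeR). NR0B2 (SHP), the repressor that bile acid-bound NR1H4 switches on, was singled out after its values were seen. It had 31, 384, 0, 0, 374, 1, 0 and 1 counts in the livers of fetuses 1, 2, 3, 4, 5, 8, 9 and 10, an order unlike that of NR1H4, and the livers of fetuses 1 and 2, near copies elsewhere, differed in it.

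The FOXA proteins share a forkhead DNA-binding domain and can bind closed chromatin. FOXA2 was at 49.0, 45.4, 42.7, 27.9, 41.9, 49.7, 37.8 and 38.6 CPM in the livers of fetuses 1, 2, 3, 4, 5, 8, 9 and 10. As with HNF4A, fetus 4 was the lowest. No heart library held a count of FOXA2 and 2 of 9 gonad libraries held 2 and 10 counts. Set against the level that 3 counts over all hearts would give, the liver mean of 41.4 ± 7.66 CPM (SD, n = 6) was 2904-fold higher. A count is not always 1 molecule in these data, so this fold is not a strict bound. Over the gonads the log2 fold change of FOXA2 was 10.53 (SE 0.623, adjusted p = 5.82e-12, edgeR). The 10 counts lay in the gonads of fetus 5, without which that log2 fold change was 12.21.

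FOXA3 was at 15.7, 15.2, 11.4, 8.61, 14.9, 17.0, 17.4 and 23.0 CPM in the same livers, lowest again in fetus 4 and highest in the heaviest fetus (mean 15.1 ± 4.95 CPM, SD, n = 6). Hearts held 6 counts of it in all. In the gonads 6 of 9 libraries had a count, and the gonads of fetus 7, at 1.33 CPM, stood apart from the other gonads, of which the next held 0.469 CPM. The liver was higher by a log2 fold change of 8.90 over the heart (SE 0.988, adjusted p = 8.19e-09, edgeR) and of 5.73 over the gonads (SE 0.789, adjusted p = 3.45e-07, edgeR). The latter was 6.59 without fetus 7 and 7.23 with the fetus as a replicate block, and the former 9.86 without fetus 10.

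FOXA1 had 16 to 53 counts in a liver library and stood at 2.13, 2.0, 0.942, 2.05, 1.34, 2.23, 1.55 and 1.31 CPM in those livers. No fold between FOXA genes is drawn from CPM, since transcript length was not taken into account, but the ratio of FOXA2 to FOXA3 counts within a library can be followed between livers. That ratio ran from 3.76 in fetus 3 to 1.68 in fetus 10. It was next lowest, at 2.18, in fetus 9, whose liver was close to a weighted sum of those of fetuses 10 and 8. The low value of fetus 9 is thus not independent of that of fetus 10. FOXA1 had 0 counts in all 9 hearts and 12 counts in all in the gonads. Its liver mean of 1.66 ± 0.527 CPM (SD, n = 6) was 116-fold above the level that 3 counts over all hearts would give, again not a strict bound. The log2 fold change over the gonads was 5.86 (SE 0.882, adjusted p = 7.43e-06, edgeR). It was 6.91 without fetus 4, whose gonads held 8 of the 12 counts, and 6.72 with the block.

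**Figure D2:**
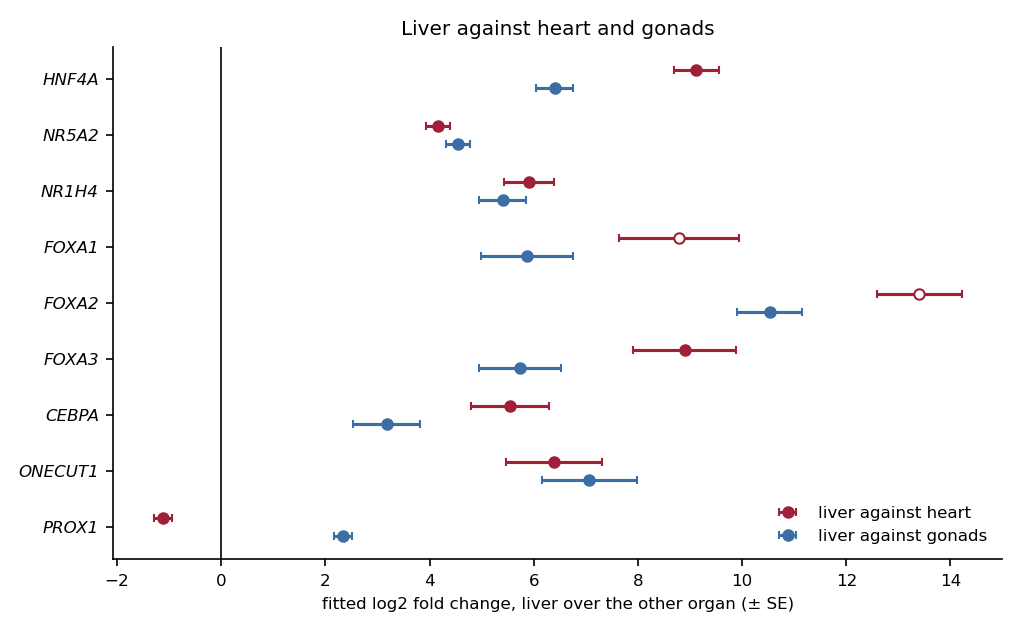
Fitted log2 fold change (± SE, edgeR) of the liver over the heart (red) and over the gonads (blue) for the 9 factors. Hollow points have 0 counts in all hearts, so their fitted value depends on a prior count and is not a bound. PROX1 alone lies below 0, at -1.12 over the heart.

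CEBPA, a basic leucine zipper factor, was at 3.04, 2.7, 2.47, 4.16, 2.15, 1.81, 1.3 and 1.37 CPM in the livers of fetuses 1, 2, 3, 4, 5, 8, 9 and 10, from 21 to 66 counts a library. Fetus 4, the lowest for 4 other factors, had the highest level, and the 3 ET_D9 fetuses had the lowest. Its mean was 2.47 ± 0.976 CPM (SD, n = 6). Hearts held up to 0.195 CPM and gonads up to 0.542 CPM, and the log2 fold change of the liver was 5.54 over the heart (SE 0.751, adjusted p = 3.07e-07, edgeR) and 3.18 over the gonads (SE 0.642, adjusted p = 9.75e-05, edgeR). Among the 8 liver-high factors this was the smallest difference over the gonads. The difference over the heart was 6.49 without fetus 3 and 6.24 with the block. The 5 blood leukocyte markers summed to 28.1 to 47.7 CPM in the livers and 3.05 to 5.62 CPM in the hearts. S100A8 and S100A9 were higher in the liver than in heart and gonads, and 3 were neither. Of 3 tested within the liver, S100A9 fell along weight and was lower in ET_D9, as called by edgeR. The part of such cells in the CEBPA level was not tested.

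ONECUT1, a cut-homeodomain factor, was at 2.77, 2.56, 2.24, 3.67, 3.29, 5.10, 3.46 and 2.75 CPM in the same livers, highest in fetus 8. Its 38 to 121 counts a liver compare with 7 counts over all hearts and 10 over all gonads. Its log2 fold change was 6.39 over the heart (SE 0.916, adjusted p = 7.97e-07, edgeR) and 7.07 over the gonads (SE 0.907, adjusted p = 9.98e-08, edgeR). Of these 10 gonad counts, 8 lay in the library of fetus 8 and 0 in that of fetus 6, its near copy, and without dependent libraries the log2 fold change over the gonads was 8.56 (8.39 without fetus 8, 7.82 with the block). Over the heart it was 7.70 without fetus 6 and 7.30 with the block.

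PROX1, a homeodomain factor, was the most even across livers, with 21.6, 19.9, 17.1, 20.1, 24.4, 18.1, 16.6 and 21.2 CPM in fetuses 1, 2, 3, 4, 5, 8, 9 and 10. Its coefficient of variation over independent livers was 12.6%, against 18.5% for FOXA2 and 39.4% for CEBPA. In the hearts of fetuses 1, 2, 3, 4, 5, 6, 8, 9 and 10 it was at 33.7, 24.9, 45.8, 34.9, 33.3, 45.9, 48.0, 49.0 and 72.5 CPM. Every heart was above every liver, although the lowest heart and the highest liver lay within 1 CPM of each other. The gonads held 2.36 to 6.16 CPM, below every heart and liver. A liver range below all hearts was found for 13.5% of genes and a gonad range below all hearts for 11.6%. PROX1 was lower in the liver than in the heart by a log2 fold change of -1.12 (SE 0.177, adjusted p = 3.71e-06, edgeR) and higher than in the gonads by 2.34 (SE 0.18, adjusted p = 4.46e-12, edgeR), and the gonads were below the heart by -3.46 (SE 0.185, adjusted p = 4.05e-15, edgeR). Cardiomyocyte markers, which summed to 33690 to 50790 CPM in the hearts, varied between livers from 2.81 to 1983 CPM. The liver with the most, that of fetus 3, had 17.1 CPM of PROX1, the second lowest. Of 4 lymphatic endothelial markers, CCL21 had 2 counts over all hearts and 0 over all livers. The summed level was 8.10 to 13.5 CPM in the hearts and 33.6 to 46.7 CPM in the livers. LYVE1, which is also in the endothelial list, and FLT4 were higher in the liver than in the heart (log2 fold change 3.80 and 1.25). PDPN and CCL21 had estimates below 0 (-1.68 and -1.58) and were not called. The part of heart muscle or lymphatic cells in the PROX1 level of either organ was not tested.

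Between the organs other than liver, 4 factors were higher in the gonads than in the heart (HNF4A, FOXA1, FOXA3 and CEBPA), PROX1 was lower, and 4 did not pass the test, where 23.1% of all genes were called higher and 23.5% lower. Of the 4 that were higher, HNF4A had the lowest adjusted p, with a log2 fold change of 2.72 (SE 0.399, adjusted p = 1.68e-06, edgeR) and every gonad library above every heart library. That separation was seen in 11.6% of genes. The mesonephros and nephron markers were higher in the same libraries (321 to 417 CPM in the gonads and 12.0 to 16.8 CPM in the hearts), and their part in the HNF4A level was not tested. With the fetus as a replicate block, 2 factors remained higher, HNF4A and CEBPA, and the adjusted p rose to 0.111 for FOXA1 and 0.0931 for FOXA3. The FOXA1 call rested on 12 counts, was not made by DESeq2 (log2 fold change 1.62, adjusted p = 0.182) and was lost without the libraries of fetus 3, 4 or 6 in turn (adjusted p = 0.0652, 0.152 and 0.0607, edgeR). The differences of FOXA3 and CEBPA, called whichever fetus was left out, also moved with 1 fetus, for FOXA3 from 2.31 without fetus 7 to 4.28 without fetus 10 (against 3.17) and for CEBPA up to 3.37 without fetus 3 (against 2.36). ONECUT1 passed only without the libraries of fetus 8, as lower in the gonads (log2 fold change -2.31, adjusted p = 0.0330, edgeR).

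In maternal blood, CEBPA, HNF4A and PROX1 had a count in every library and the other 6 did not. CEBPA ranged from 9.48 to 16.1 CPM with a median of 12.5 CPM, and PROX1 from 13.9 to 21.2 CPM with a median of 17.7 CPM. HNF4A ranged from 0.335 to 2.16 CPM. FOXA2 reached 0.693 CPM and had no count in 3 of 10 libraries, and FOXA1, FOXA3, NR1H4 and NR5A2 stayed at or below 0.444 CPM. ONECUT1 had 0 counts in all 10, where 3 counts over the group would give 0.00878 CPM. The 5 blood leukocyte markers summed to 5122 to 5712 CPM there. Cardiomyocyte markers reached 3575 CPM in the blood of the heifer carrying fetus 2 and 1204 CPM in that of the heifer carrying fetus 5, where PROX1 stood at 21.2 and 15.9 CPM, the highest and the third lowest of the 10 samples. The source of these markers, and its part in the PROX1 level of blood, was not tested.

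The other regulators and the targets of these factors give the setting. Of 30 further regulators of the liver, 18 exceeded heart and gonads in the liver, 3 were lower than in both and 9 were neither, where 23.1% of all genes were higher than in both. The largest differences were in CREB3L3, a membrane-bound factor of the fasting response, with 10.5 to 20.1 CPM in the livers, 0 counts in all hearts and at most 0.285 CPM in the gonads, in ONECUT2, a relative of ONECUT1, with 79.8 to 176 CPM in the livers and at most 2.78 CPM elsewhere in the fetus, and in MLXIPL (ChREBP), the factor that answers to glucose, with 42.0 to 146 CPM against at most 3.6 CPM. Lower in the liver than in both were the Wnt effector TCF7L2, the glucocorticoid receptor NR3C1 and TBX3, which takes part in hepatoblast growth. TBX3 was at 4.28 to 16.5 CPM in the livers, 4.17 to 39.6 CPM in the hearts and 37.8 to 64.0 CPM in the gonads, so its call against the heart (log2 fold change -0.82, adjusted p = 0.0421, edgeR) came from groups that overlapped. The list's median smaller log2 fold change was 1.63.

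Of 27 textbook targets, 26 had a count in an organ library and 23 were above heart and gonads in the liver. The median of the smaller log2 fold change was 5.17. None was lower than in both. SERPINA1 (alpha-1-antitrypsin) was at 15010 to 32360 CPM in the livers and at most 4.62 CPM elsewhere in the fetus. F9 (clotting factor IX) was at 38.2 to 56.9 CPM in the livers with 0 counts in all 28 other libraries. APOA2 was at 2691 to 8020 CPM in the livers and at most 1.39 CPM in the other organs. The 3 targets that were neither were CYP7A1, the first enzyme of bile acid synthesis, PCK1, which acts in glucose production, and SCARB1, a lipoprotein receptor. APOC3, a target of HNF4A, is listed at 0 in all 36 libraries.

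**Figure D3:**
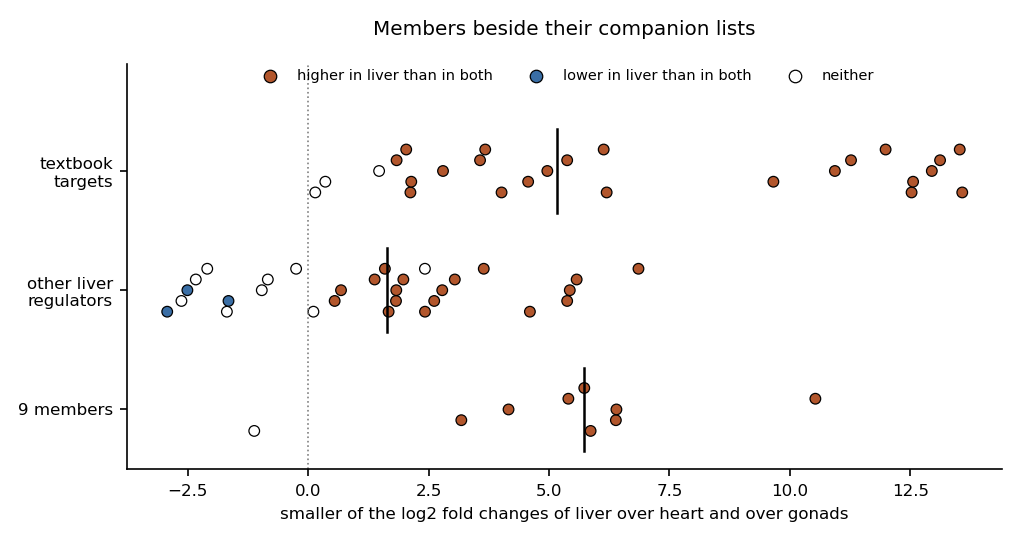
Smaller of the log2 fold changes of the liver over the heart and over the gonads, 1 point a gene, for the 9 factors, 30 other liver regulators and the 26 textbook targets with a count, with the list median as a bar. The medians are 5.73, 1.63 and 5.17. Genes with 0 counts in an organ have a fitted value that is not a bound.

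The genes whose log2 CPM followed each factor most closely over the 26 organ libraries were found among 19635 genes. Such values mostly reflect the differences between organs that the libraries share, some libraries are not independent, and no p is given. HNF4A was closest to ASGR2, CPN1 and LOC104970698 (Pearson r = 0.977, 0.975 and 0.975). FOXA2 was closest to F9, to the gene with Entrez 286804 and to SERPINA7 (r = 0.990 for each), and FOXA1 to APOH, LOC112441867 and ASPA (r = 0.983, 0.978 and 0.976). FOXA3 was closest to ANKS4B, RCL1 and CTRC (r = 0.953, 0.937 and 0.937). The partners of HNF4A, FOXA2 and FOXA1 thus include ASGR2, a subunit of the hepatocyte asialoglycoprotein receptor, and the plasma proteins F9 and APOH. None of these was among the 3 closest to FOXA3, and the other partners of these 4 factors were not sorted by cell type. CEBPA was closest to PDIA5, ERICH4 and CPN1, at the lowest values of the 9 (r = 0.922, 0.921 and 0.917), and ONECUT1 to CYP4F47, VTN and CHIA (r = 0.959, 0.957 and 0.956). NR5A2 was closest to CFI, SPP2 and IKZF1 (r = 0.986, 0.985 and 0.984), and NR1H4 to RHAG, AFP and IQGAP2 (r = 0.971, 0.963 and 0.960). IKZF1 is a factor of lymphoid cells and RHAG an erythrocyte membrane protein, so partners of these receptors were not all genes of hepatocytes. PROX1, with its own order of organs, was closest to BCKDHB, SLC16A12 and CLGN (r = 0.983, 0.979 and 0.977).

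Between the liver libraries the factors did not move as a block. HNF4A and FOXA2 went together (r = 0.89 over 8 libraries and 0.89 over 6 independent samples, log2 CPM), as did NR1H4 and NR5A2 (r = 0.87 and 0.83). The first of these values leans on the liver of fetus 4. It held 52.6 CPM of HNF4A and 27.9 CPM of FOXA2, where the others held at least 67.4 and 37.8 CPM. No r without that liver is given. FOXA3 and CEBPA ran opposite (r = -0.85 and -0.87), and so did FOXA1 and NR1H4 (r = -0.84 and -0.86). These are the largest of 36 pairs, given as a description. The liver of fetus 4 was lowest for 4 factors (HNF4A, FOXA2, FOXA3 and NR1H4) and highest for CEBPA. In that library the hepatocyte markers summed to 32730 CPM, near the lowest of 32210 CPM (fetus 10), and the stellate and mesenchymal markers to 548 CPM, where the other livers held 293 to 419 CPM. Its cardiomyocyte markers summed to 660 CPM, second to the 1983 CPM of fetus 3. Its mitochondrially encoded share of counts, 36.8%, was the highest of the livers. The part of these cells, or of the mitochondrial share, in the levels was not tested. The liver of fetus 10, with as low a hepatocyte sum and the highest erythroid sum (6192 CPM), was highest for FOXA3, NR1H4 and NR5A2.

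Fetal weight was the study's main question. In the liver, none of the 9 factors changed along fetal weight at an adjusted p under 0.05 (edgeR), by a straight line or by a spline with 3 degrees of freedom, where 2.23% and 1.81% of 16605 genes did. At an unadjusted p under 0.05 there were 2 factors by the line and 0 by the spline, against 17.2% and 17.9% of genes, and DESeq2 called 0 by the line with 3 unadjusted. The first 2 were CEBPA, with a slope of -0.33 log2 units per 0.1 g (SE 0.121, adjusted p = 0.201, edgeR), and NR1H4, with 0.15 (SE 0.0629, adjusted p = 0.257, edgeR). HNF4A had a slope of -0.12 (SE 0.0547, adjusted p = 0.306, edgeR), which passed the test only without the liver of fetus 4 (slope -0.14, adjusted p = 0.0436, edgeR). The line without that liver called 740 of 16180 genes, against 371 of 16605 with all livers. Without livers 1 and 9 no factor had an unadjusted p under 0.05, and the slopes of CEBPA and NR1H4 were -0.34 (SE 0.227) and 0.17 (SE 0.107). None had one without fetus 9, without fetus 10 or with the transfer group as a covariate, where the CEBPA slope was -0.0668 (SE 0.398, adjusted p = 0.972, edgeR) and that of NR1H4 0.37 (SE 0.206, adjusted p = 0.674, edgeR). A negative binomial additive model called CEBPA and NR1H4, but it called 5138 of 16605 genes.

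**Figure D4:**
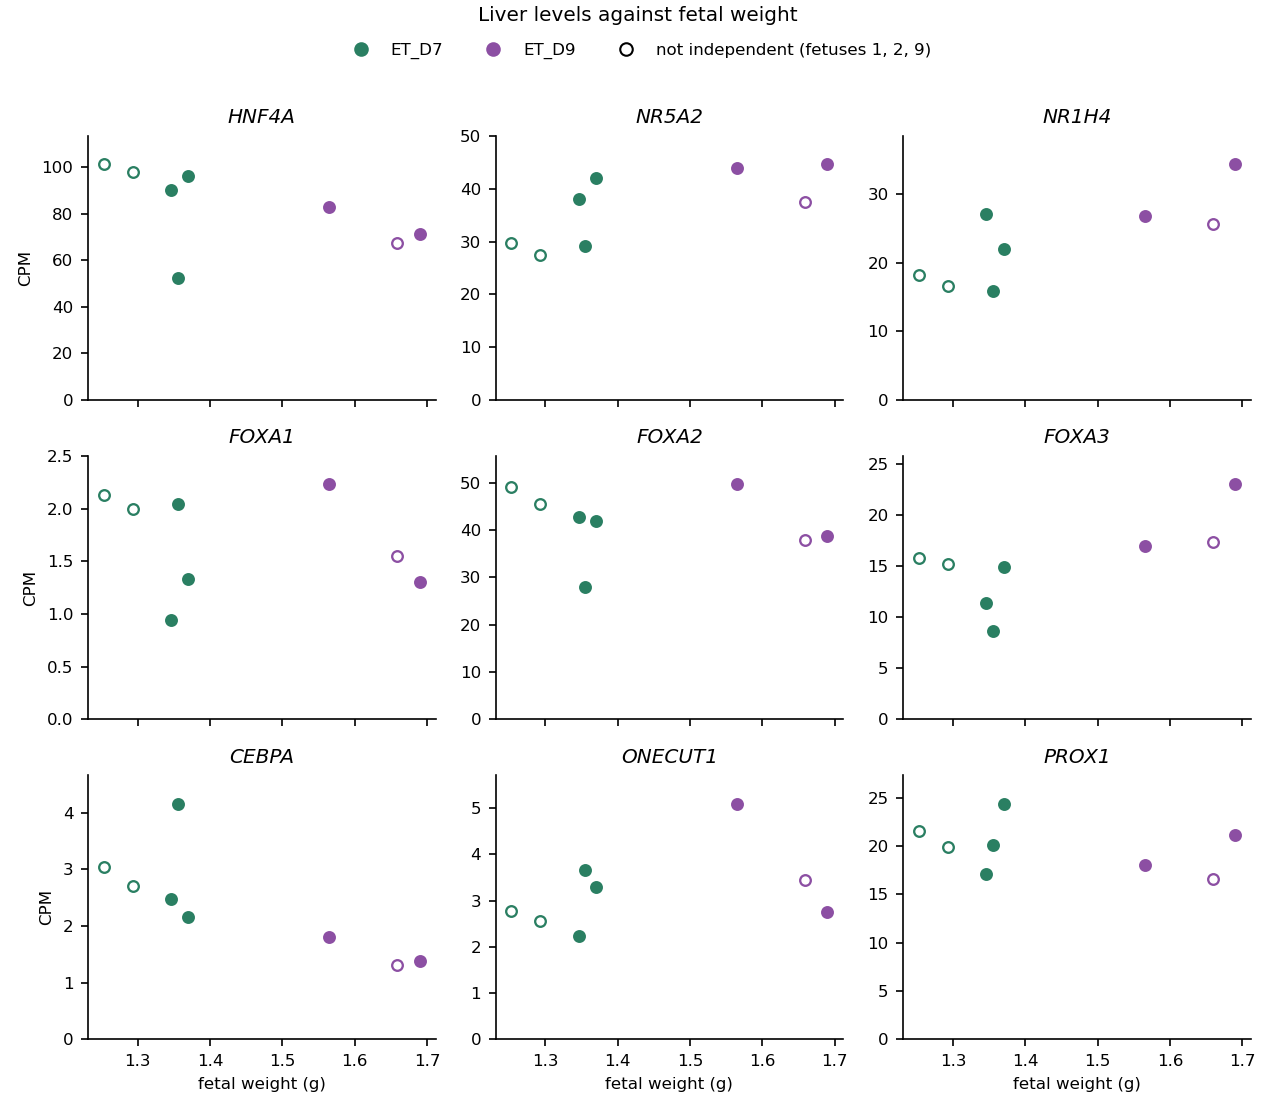
CPM of the 9 factors in the 8 livers against fetal weight in grams, by transfer group (ET_D7 green, ET_D9 purple), each axis starting at 0. Hollow points are the libraries of fetuses 1, 2 and 9, which were not independent of others. CEBPA is lowest and FOXA3 highest in the 3 ET_D9 livers, and fetus 4, at 1.355 g, is lowest for HNF4A, FOXA2, FOXA3 and NR1H4.

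Between transfer groups in the liver, 5 ET_D7 and 3 ET_D9 libraries, none of the 9 passed the test by edgeR or DESeq2, and 1, CEBPA, had an unadjusted p under 0.05 by each but not without livers 1 and 9, without fetus 9 or without fetus 10 (for edgeR, 4.14% of genes passed the adjusted and 17.4% the unadjusted threshold). CEBPA was at 2.15 to 4.16 CPM in ET_D7 and 1.3 to 1.81 CPM in ET_D9, a log2 fold change of -1.09 (SE 0.387, adjusted p = 0.173, edgeR). Without livers 1 and 9, which leaves 2 livers in ET_D9, it was -1.01 (SE 0.675, adjusted p = 0.885, edgeR). FOXA3 was at 8.61 to 15.7 CPM in ET_D7 and 17.0 to 23.0 CPM in ET_D9, with 0.43 (SE 0.233, adjusted p = 0.391, edgeR). These 2 were the factors whose groups did not overlap, which was so for 14.2% of genes. HNF4A, at -0.37 (SE 0.189, adjusted p = 0.360, edgeR), passed only without the liver of fetus 4 (-0.49, adjusted p = 0.0294, edgeR). The group test without that liver called 1014 of 16180 genes, against 688 of 16605 with all livers. No textbook target was called between groups, and no other regulator or target was called along weight in the liver.

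In the heart 2 factors had enough counts for a test along weight. PROX1 rose by 0.22 log2 units per 0.1 g (SE 0.0526, adjusted p = 0.0419, edgeR), where 5.22% of 16250 genes rose and 6.77% were called in either direction, and NR5A2 had a slope of -0.26 (SE 0.104, adjusted p = 0.136, edgeR). The heart of fetus 10 held the most PROX1 and that of fetus 2 the least, and the 4 ET_D9 hearts, at 45.9 to 72.5 CPM, lay above the 5 ET_D7 hearts, at 24.9 to 45.8 CPM, by a narrow margin between fetuses 6 and 3. Transfer groups without overlap in the heart were found for 9.74% of genes. The PROX1 call was not firm. It was lost without the heart of fetus 1, a weighted sum of others (0.24, adjusted p = 0.120, edgeR), without any of fetuses 2, 4, 5, 8 and 10 in turn (adjusted p from 0.0656 to 0.369, edgeR), with the transfer group as a covariate (0.17, adjusted p = 0.699, edgeR) and in the spline fit (adjusted p = 0.601, edgeR). Each of these fits called 0 of all genes in the heart, and without heart 1 the unadjusted p of PROX1 was 0.00401 (edgeR). The slope was above 0 in each of these line fits, from 0.17 to 0.26. Beside it, 2 of 6 endothelial markers, CDH5 and PECAM1, also rose along weight in the heart. No cardiomyocyte marker of 7 and no lymphatic marker of 3 was called. The part of these cells in the PROX1 level was not tested.

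**Figure D5:**
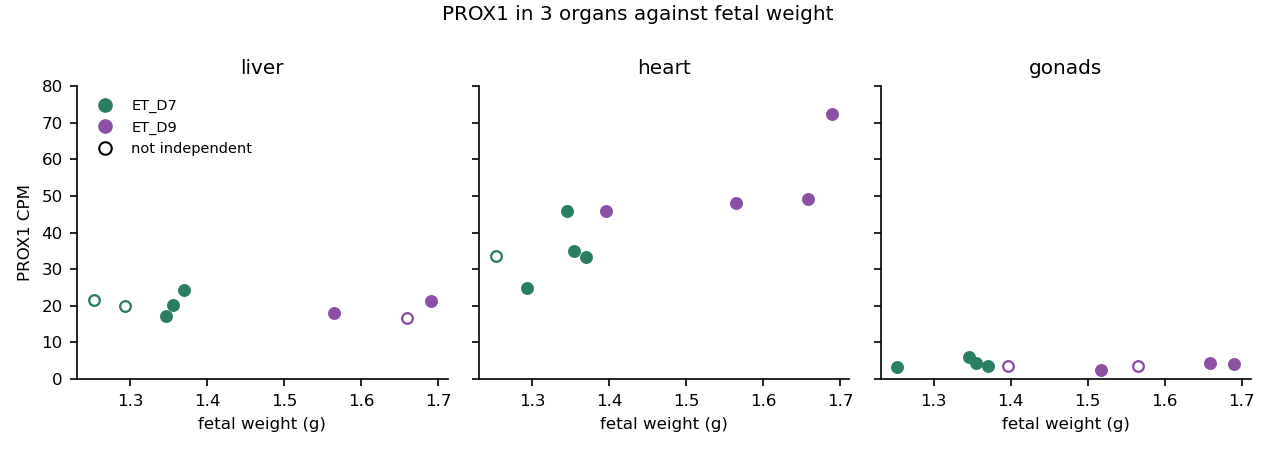
PROX1 in CPM against fetal weight in grams in the livers, hearts and gonads, on 1 common axis from 0, by transfer group (ET_D7 green, ET_D9 purple) with libraries that were not independent drawn hollow. Hearts run from 24.9 CPM in fetus 2 to 72.5 CPM in fetus 10, and livers stay between 16.6 and 24.4 CPM.

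In the gonads 6 factors and in maternal blood 3 could be tested along weight. None passed the line or the spline by edgeR, or the line by DESeq2. In the gonads 1 factor had an unadjusted p under 0.05 by the line and 0 by the spline, against 5.62% and 12.6% of genes, and in blood 0 had by either, against 9.69% and 9.77%. After adjustment the spline in blood called 0.129% of genes. FOXA3 passed the spline in the gonads only without the copied libraries of fetuses 6 and 8 (adjusted p = 0.0104, edgeR), a fit that called 3082 of all genes.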

How the data were processed

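RNA of 36 libraries (26 of fetal organs, TruSeq stranded mRNA, and 10 of maternal blood, SMARTer Stranded) was sequenced as paired reads. The authors checked reads with FastQC 0.11.9, trimmed them with Trimmomatic, mapped them with STAR 2.7.0b to ARS-UCD1.3 and counted them with featureCounts (Subread 2.0.3). The deposited values are raw counts per Entrez gene with no normalization stated. Options for strand, read pairs and shared reads are not given in the sources used here, so genes that overlap or have near-identical copies are uncertain. Genes of 2 to 21 counts held an even count in 58.4% to 78.9% of cases in organs and 87.0% to 90.7% in blood, where 50% would be random, so a count is not always 1 molecule, and precision from counts covers counting error only.

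Symbols came from a RefSeq gene table (31630 of 35092 genes matched), which is of another build, so no coordinates are given, and no sequences were used here. Mitochondrially encoded genes took 16.3% to 36.8% of the liver counts. Fits used R 4.3.3 and edgeR 4.0.16 (quasi-likelihood, TMM): all 26 organ libraries together, over genes with at least 1 count, and each tissue along weight, over genes that reached 10 counts in 4 libraries or more (9 factors passed in liver, 6 in gonads, 3 in blood, 2 in heart, so lists of tested factors outside the liver are not all 9). Calls are Benjamini-Hochberg adjusted p under 0.05. Alternatives were DESeq2 1.42.0, RLE scaling, other filters, gene sets, covariates, leave-one-out, a block, and an mgcv 1.9.3 additive model. The fits without dependent libraries were chosen after seeing the data. Fits were tested on simulated data. Fetus numbers pair organs of 1 animal, and deviations of the same fetus correlated at a median r of 0.0153 over 23 organ pairs (-0.0422 to 0.146). The 9 factors and the lists were chosen with earlier results of these data known. Named were all 9 factors, from each companion list the 3 with the largest smaller fold change, those lower in liver than in both and those called in liver, and for each factor its 3 closest genes, but 1 result on the other regulators between transfer groups is not reported here. Each library is 1 fetus or heifer.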

Additional observations from a re-analysis of the deposited data

Results flagged for a closer look

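Of 33 sets of libraries (1 factor in 1 tissue), 6 held a highest sample far from the rest by Dixon's test at the 95% level. All 6 were at low counts outside the liver. The test assumes independent, normally distributed values, which sets with many 0 counts are not. The gonad sets also include the copied libraries of fetuses 6 and 8. The 6 are therefore not set against a rate given by chance. FOXA1 was at 0.144 CPM (8 counts) in the gonads of fetus 4, where the next held 0.0440 CPM, and at 0.444 CPM (12 counts) in the blood of the heifer carrying the same fetus, where the next held 0.0730 CPM. FOXA2 was at 0.155 CPM (10 counts) in the gonads of fetus 5. FOXA3 was at 1.33 CPM (66 counts) in the gonads of fetus 7, the largest of the 6. ONECUT1 was at 0.205 CPM (5 counts) in the heart of fetus 6 and at 0.134 CPM (8 counts) in the gonads of fetus 8.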

How the results depend on the processing

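All 18 calls of the liver against the heart and the gonads held under each alternative, RLE scaling included, which moved the median log2 fold change of all genes to 0.127 and 0.130 in these comparisons, as did the block (-0.0190 and -0.166) and DESeq2 (0.0746 and 0.268). With the fetus as a replicate block (a paired fit), 2 factors in place of 4 were higher in the gonads than in the heart, and no other organ call changed. Leaving out 1 fetus in turn gave 1 to 2 factors lower in the gonads than in the heart, where ONECUT1 ran from 0.76 without fetus 6 to -2.31 without fetus 8. It gave 0 to 1 factors along weight in the liver and in the heart and 0 to 1 between transfer groups, with FOXA1 between groups from -0.28 without fetus 8 to 0.0336 without fetus 10 (against -0.12). The additive model called 2 factors in the liver (5138 of all genes, against 301 by the spline), the transfer group as a covariate 0 in the heart, the fit without dependent libraries 0 in the heart and 1 by the spline in the gonads. Slopes reversed by the covariate were PROX1 in the liver (0.18), ONECUT1 (-0.0720) and NR5A2 in the heart (0.0761), and FOXA2 between groups was at 0.0029 without livers 1 and 9, none called. Over all genes, the line in the liver called 371 genes by edgeR, 1442 by DESeq2, 157 with genes of at least 1 count, 189 without dependent libraries, 0 with the covariate and 23 to 740 leaving out 1 fetus. In the heart it called 1100, 3066 by DESeq2, 706 with genes of at least 1 count, 0 without heart 1 or with the covariate, and 0 to 3947 leaving out 1 fetus, and in maternal blood 0 and 112 by DESeq2. The spline called 560 in the liver without dependent libraries and 3082 in the gonads without fetuses 6 and 8, against 0. Transfer groups called 688, 1520 by DESeq2, 441 with genes of at least 1 count, 247 without livers 1 and 9 and 227 to 1014 leaving out 1 fetus. The causes were not tested, beyond there being fewer libraries or more genes in a fit. Depth limits FOXA1, CEBPA and ONECUT1 most, whose highest liver counts were 53, 66 and 121.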
